A study of Mus musculus with 6 samples.

Results

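The 9 myelin genes Mbp, Mog, Mag, Mobp, Cnp, Mal, Cldn11, Opalin and Myrf were followed in single-nucleus RNA-seq of the mouse hindbrain. They were chosen by symbol, all 9 were found among the 32285 genes of the deposited matrices, and their unique molecular identifiers (UMIs, a count of captured RNA molecules) were summed per library over nuclei of each cell class. The exposed mice, male C57BL6/J wild types, lived under chronic intermittent hypoxia (CIH) between postnatal days 22 and 43. On each of 21 days they went through 80 cycles over 8 hours, in which nitrogen for 60 s lowered the oxygen in the chamber to between 4.5 and 5% before air restored it to 21% within up to 5 min. The others, of the same strain, sex and age, were kept in room air (normoxia). Pons and medulla were sequenced with droplet 3' chemistry as 3 CIH and 3 normoxia libraries, and because nothing in the labels tells whether a library is 1 mouse or a pool, p-values measure the spread between libraries.

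Myelin is the stack of lipid-rich membrane that oligodendrocytes wrap around axons, which lets impulses travel faster and feeds the axon. Its genes are switched on together when precursor cells mature, and hindbrain tracts are heavily myelinated. Because mature oligodendrocytes hold these RNAs in large amounts, the RNAs are also a common part of the free RNA that leaks from broken cells into droplets holding nuclei of other types, so a UMI in a neuron need not have been made there.

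Filters of 500 or more genes and no more than 5% mitochondrial UMIs kept 40139 nuclei of 43836 barcodes. The CIH libraries kept 4350, 4447 and 10643 nuclei with 26542300, 28252065 and 39826159 UMIs, and the normoxia libraries 4698, 6615 and 9386 nuclei with 30013308, 36903720 and 46348273 UMIs. The third CIH library differed from the others, as its typical (median) nucleus had 0.366% mitochondrial UMIs, against 0.0624 to 0.0955% in the other 5 libraries. The first CIH and the second normoxia library shared 1563 barcodes, whereas any other pair of libraries shared between 2 and 31 barcodes that passed the filters. Of the shared barcodes 1163 passed the filters in the second normoxia library, where they made up 17.6% of nuclei and 6.33% of UMIs. For the same barcode the second normoxia library held a median of 12.6% of the UMIs of the first CIH library (5th to 95th percentile 11.4 to 13.9%), with medians of 7872 UMIs in the first CIH library and 984 UMIs in the second normoxia library. Of 1127 such barcodes that fell into a class in both, 94.0% fell into the same one. Results are therefore also given with these barcodes left out of the second normoxia library.

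Nuclei were assigned to classes by marker genes, none of which is among the 9. The oligodendrocyte class held 9740 nuclei, 965, 923 and 2623 of them from CIH and 1312, 1550 and 2367 from normoxia. The 17 oligodendrocyte markers summed to between 11100 and 11846 CPM (UMIs scaled to the same total for each class and library, the level used throughout) in this class, and to at most 1008 CPM in any library's neurons, precursors, astrocytes, microglia, vascular cells or fibroblasts. Because the classes were chosen by such markers, this contrast follows from the choice. All 9 genes followed the label: together they reached between 9620 and 10784 CPM in oligodendrocytes, or 260228 of 25760680 UMIs.

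The promoters of 3 of the genes are shown because these genes had log2 fold changes of either sign in the comparison that follows: positive for Mobp and Cnp, whose groups did not overlap, and negative for Opalin, whose groups did. Sequences are from RefSeq on GRCm38.p6, each running from 250 bases before to 50 after an annotated start. They were searched for 7 of the 9 genes, and Mbp and Myrf were left out. Capitals mark ACAAAG, the core that HMG-box factors of the Sox and Tcf families bind, and CTGGCAC, the core that the myelin regulator Myrf binds, on either strand. The motifs do not overlap each other. Mobp is at chr9:120149492-120149791 (plus strand), Cnp at chr11:100574689-100574988 (plus strand) and Opalin at chr19:41077064-41077363 (minus strand).
Mobp: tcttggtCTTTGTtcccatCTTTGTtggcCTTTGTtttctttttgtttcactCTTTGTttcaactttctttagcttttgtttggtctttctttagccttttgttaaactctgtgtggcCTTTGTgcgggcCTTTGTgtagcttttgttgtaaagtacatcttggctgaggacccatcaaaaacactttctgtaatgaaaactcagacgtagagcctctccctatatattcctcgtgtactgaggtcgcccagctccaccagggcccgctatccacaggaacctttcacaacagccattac
Cnp: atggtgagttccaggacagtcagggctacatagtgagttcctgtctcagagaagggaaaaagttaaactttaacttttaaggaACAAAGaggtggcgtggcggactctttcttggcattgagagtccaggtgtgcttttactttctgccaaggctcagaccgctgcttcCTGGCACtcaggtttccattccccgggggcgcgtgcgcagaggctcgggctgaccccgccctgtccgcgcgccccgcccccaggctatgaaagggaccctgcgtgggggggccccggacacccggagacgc
Opalin: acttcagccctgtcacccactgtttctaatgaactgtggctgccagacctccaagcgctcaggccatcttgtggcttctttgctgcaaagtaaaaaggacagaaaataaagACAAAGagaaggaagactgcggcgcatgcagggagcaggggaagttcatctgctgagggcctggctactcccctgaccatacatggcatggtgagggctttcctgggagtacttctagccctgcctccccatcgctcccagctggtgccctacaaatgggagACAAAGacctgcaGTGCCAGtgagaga

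The Mobp promoter held 6 copies of ACAAAG or its reverse complement CTTTGT, the Opalin promoter 2 and the Cnp promoter 1. Of the other 4 genes searched, Mag held 1 copy at 2 of its 3 annotated starts and Mog, Mal and Cldn11 held 0. The motif was picked after the letters of the Mobp promoter had been seen. At least 1 copy stood in 18.7% of the 32851 RefSeq promoters of this length. Only 1 of them, or 0.003%, held at least 6, and it was that of Mobp itself. Because the motif was picked from this promoter, that rarity tests nothing about it. CTGGCAC or its reverse complement stood in 5.01% of all promoters and, among the 7 genes, in those of Cnp, Mag and Opalin. The variant CTGGTAC, found in 2.24% of promoters, stood in that of Mog. AACAAT, another Sox core present in 10.7% of promoters, was in none of the 7.

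In oligodendrocytes, Mobp, Cnp and Myrf were higher in every CIH library than in every normoxia library, and the other 6 genes overlapped between the groups. Mobp had the lowest p of the 9, and averaged 1811 ± 134 CPM under CIH against 1367 ± 171 CPM under normoxia (SD, n = 3 each). None of the 9 passed the test over all genes (edgeR quasi-likelihood, Benjamini-Hochberg adjusted p under 0.05), which called 1 of 12578 genes, 0.00795%, and 681 at an unadjusted p under 0.05. The gene called was Hif3a, named here after its value was seen. For reference, 6.42% of the 12578 genes had every CIH library above every normoxia library and 5.12% every one below, and 0 of the 9 myelin genes were of the second kind.

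Mobp, which encodes myelin-associated oligodendrocyte basic protein, a small basic protein of the compact membrane, lies on chromosome 9 from 120149707 to 120181484 (GENCODE M21, mm10). In oligodendrocytes it had 1736, 1732 and 1966 CPM in CIH libraries 1, 2 and 3, against 1252, 1285 and 1563 CPM in normoxia libraries 1, 2 and 3. The lowest CIH library was above the highest normoxia library, and in each group library 3 was the highest. The log2 fold change was 0.39 (SE 0.09), with an edgeR-adjusted p of 0.561, and by p the gene ranked 50 among the 12578. When replicate number entered the model as a block, the log2 fold change of Mobp was again 0.39 (SE 0.06) and its adjusted p = 0.0106, in a fit that called 65 genes, 0.517%. Ratios between libraries of the same number, CIH over normoxia, were 1.39, 1.35 and 1.26 for Mobp. Without the third CIH library the log2 fold change of Mobp was 0.34 (adjusted p = 0.383 in edgeR), and with the shared barcodes left out it was 0.39 (adjusted p = 0.522), with 0.00796% of genes called.

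The Mobp difference was also seen per nucleus. The median oligodendrocyte had 4 Mobp UMIs in each of the 3 CIH libraries and 3 in each of the 3 normoxia libraries. To set depth aside, each nucleus was thinned to 1000 UMIs, which left out 25, 16 and 196 CIH and 25, 140 and 85 normoxia oligodendrocytes of lower depth. A Mobp UMI was then left in 77.3, 76.8 and 79.9% of CIH oligodendrocytes and in 69.0, 67.3 and 75.8% of normoxia oligodendrocytes, again without overlap. Unthinned, the shares were 93.1, 93.1 and 91.5% in CIH and 89.6, 89.0 and 89.8% in normoxia. Granule neurons, which should lack Mobp RNA, gave 4.74, 4.42 and 12.1% after thinning in CIH and 4.80, 5.21 and 6.74% in normoxia. Median depths were 1996 to 2793 UMIs in oligodendrocytes and 2506.5 to 3268.5 UMIs in granule neurons.

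**Figure D1:**
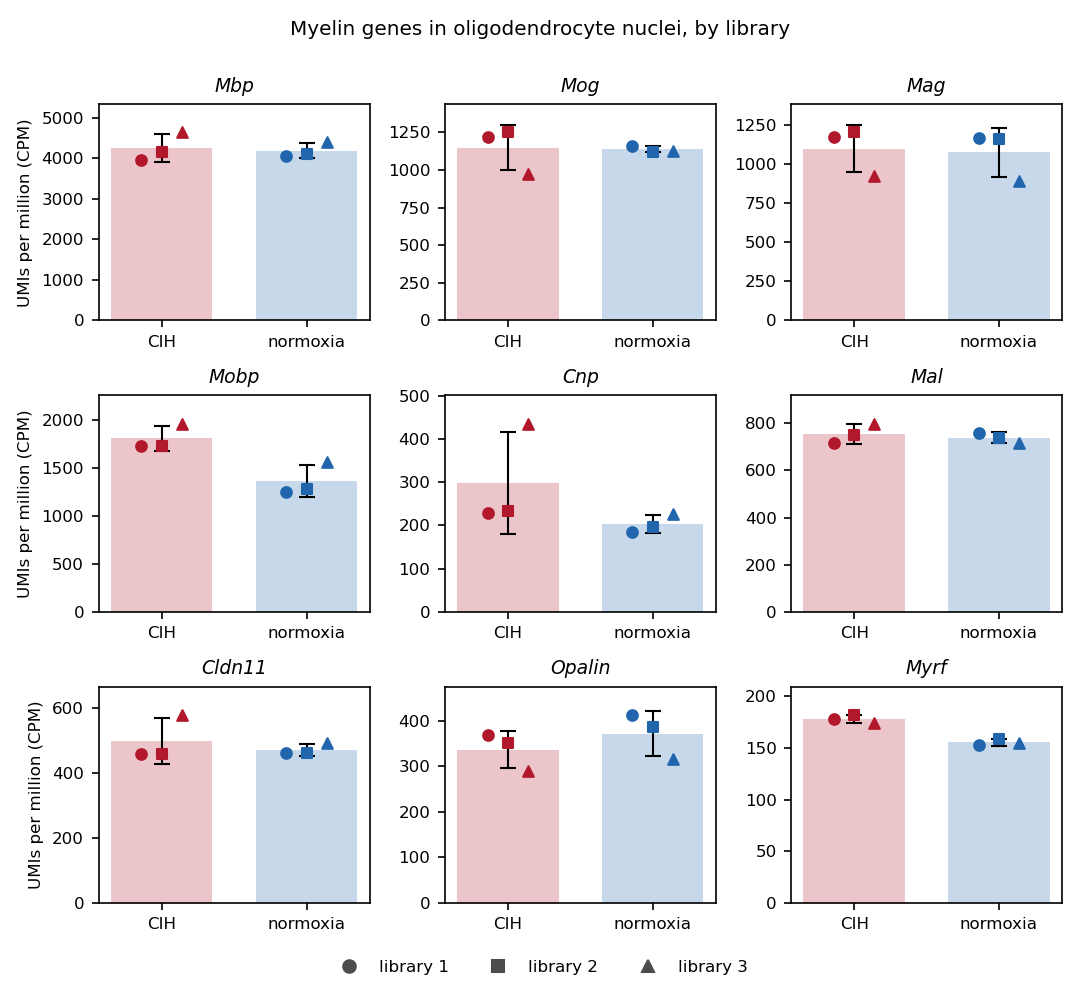
Level in CPM of each of the 9 genes in oligodendrocyte nuclei (y axes start at 0), with CIH on the left and normoxia on the right of each panel. Points are libraries, bars group means and whiskers SD (n = 3 each). Mobp sits between 1732 and 1966 CPM in CIH and between 1252 and 1563 CPM in normoxia, whereas Mbp and Mag overlap.

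Mbp encodes myelin basic protein, which holds the cytoplasmic faces of the compact membrane together. It had 3960.2, 4164 and 4639 CPM under CIH against 4067, 4107 and 4406 CPM under normoxia, so that the groups overlapped. Its log2 fold change was 0.00 (SE 0.07), and a Mbp UMI was found in nearly every oligodendrocyte, with a median of 8 to 11 UMIs. Mal encodes a proteolipid of ordered membrane domains that sorts myelin proteins, and lay at 717, 749 and 799 CPM under CIH against 762, 740.1 and 716 CPM under normoxia (log2 ratio 0.01, SE 0.07). Cldn11 encodes the claudin that seals the radial tight junctions of central myelin. It lay at 458, 459 and 580.0 CPM under CIH against 461, 462 and 493 CPM under normoxia (log2 ratio 0.06, SE 0.09). For Mbp and Cldn11 the third library was the highest of each group, and for Mal the third CIH library was the highest of all 6.

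Mag, an adhesion receptor of the innermost, axon-facing layer, and Mog, an immunoglobulin-like protein of the outermost surface, were lower in the third CIH library than in the other CIH libraries. Mag had 1174, 1205 and 926 CPM under CIH against 1171, 1163 and 897 CPM under normoxia, so the third library was the lowest of each group. Mog had 1222, 1248 and 974 CPM under CIH against 1160, 1121 and 1129 CPM under normoxia. Their log2 fold changes were 0.01 (SE 0.14) for Mag and -0.003 (SE 0.11) for Mog, and without the third CIH library 0.14 (adjusted p = 0.799 in edgeR) and 0.11 (adjusted p = 0.711).

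Cnp encodes the phosphodiesterase of the non-compact cytoplasmic channels and lies on chromosome 11 from 100574904 to 100591729. It had 228, 233 and 436 CPM under CIH against 186, 197 and 226 CPM under normoxia, so that the 2 groups were separated by a narrow gap and the third CIH library stood far above the rest. The log2 fold change was 0.55 (SE 0.22, adjusted p = 0.885 in edgeR) with all libraries and 0.18 (SE 0.09, adjusted p = 0.675) without the third CIH library. Same-number ratios for Cnp were 1.23, 1.19 and 1.93. The median oligodendrocyte of the third CIH library also had 0.376% mitochondrial UMIs, against 0.100 to 0.152% in the other 5 libraries. The part of this in the Cnp value was not tested. Cnp overlaps Dnajc7 on the opposite strand, and whether counting used strand is not stated. Dnajc7 had a log2 fold change of 0.04 with SE 0.09 and, in edgeR, adjusted p = 0.979, and the part of its reads in the Cnp value was not tested.

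Myrf encodes the membrane-bound transcription factor that switches on the myelin genes in maturing oligodendrocytes, and Opalin a transmembrane sialoglycoprotein of central myelin. Myrf had 179, 182 and 174 CPM under CIH against 153, 159 and 155 CPM under normoxia, a gap larger than the spread within each group (178 ± 4.07 CPM in CIH and 156 ± 3.19 CPM in normoxia, SD, n = 3 each). Its log2 fold change was 0.18 (SE 0.08, adjusted p = 0.91 in edgeR) and 0.21 (adjusted p = 0.601) without the third CIH library. Opalin ran the other way, with 368, 351 and 291 CPM under CIH against 413, 386 and 317 CPM under normoxia. The groups overlapped, but the CIH library was the lower one for every number, with ratios of 0.891, 0.910 and 0.917. The log2 fold change of Opalin was -0.16 (SE 0.13, adjusted p = 0.914 in edgeR). It was -0.06 without the third CIH library, -0.08 without the first normoxia library and -0.28 without the third normoxia library.

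**Figure D2:**
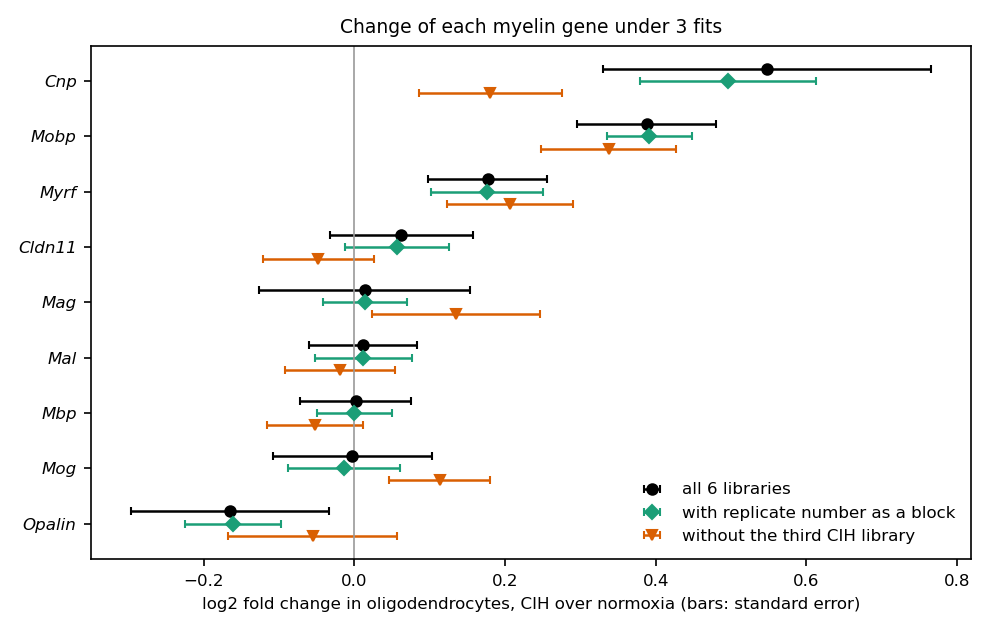
Log2 fold change of each gene in oligodendrocytes, CIH over normoxia (x axis), with bars of 1 standard error, for all 6 libraries, for the fit blocked on replicate number and for the fit without the third CIH library. Mobp stays between 0.34 and 0.39, while Cnp moves between 0.18 and 0.55.

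Among oligodendrocyte nuclei, the variance of the UMIs per nucleus was 4.44 to 9.15 times the mean for Mbp and 2.80 to 5.45 times for Mobp. For Myrf it was 1.09 to 1.28 times the mean. Such a ratio depends on the level of a gene, and the median nucleus held 8 to 11 UMIs of Mbp but 0 of Myrf. The ratios therefore do not compare how evenly the genes were spread. Differences in depth between nuclei were not removed from them either.

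Within oligodendrocytes, known types are marked by Il33 or by Anln and Sec14l5, and Mobp was compared within each. In nuclei with an Anln or Sec14l5 UMI and none of Il33, Mobp had 1838, 1836 and 2013 CPM under CIH against 1322, 1301 and 1598 CPM under normoxia. In nuclei with UMIs of both kinds it had 1624, 1609 and 1936 CPM under CIH against 1145, 1298 and 1493 CPM under normoxia. In the 50, 40 and 100 CIH and 71, 97 and 143 normoxia nuclei with only Il33, it had 1634, 1446 and 1729 CPM under CIH against 1072, 1107 and 1542 CPM under normoxia. Nuclei with UMIs of neither kind numbered 59, 60 and 308 in CIH and 82, 138 and 211 in normoxia. There Mobp had 1335, 1625 and 1775 CPM under CIH against 1548, 1177 and 1504 CPM under normoxia. The groups were apart in the first 2 subsets and overlapped in the Il33 nuclei and in those with neither kind. Opalin differed in level between the types, a difference given without a test, with 355 to 580.4 CPM in the Il33 nuclei and 226 to 333 CPM in the Anln or Sec14l5 nuclei of the 6 libraries.

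A further 1852 nuclei of the lineage were set apart by UMIs of Gpr17, Enpp6 or Bmp4, genes of newly forming oligodendrocytes. Their markers did not all go with that label. Enpp6 lay between 588 and 779 CPM, against 51.1 to 79.4 CPM in oligodendrocytes. Because UMIs of these genes defined the nuclei, that contrast follows from the choice and does not bear on the label. Gpr17 reached only 5.95 to 46.3 CPM, below or near the 38.95 to 80.7 CPM of precursors, and Mbp was already at 4385 to 4789 CPM. These nuclei are called Enpp6-gated here. Opalin was at 43.4, 58.0 and 57.2 CPM in their CIH libraries and 88.7, 79.7 and 69.3 CPM in their normoxia libraries, far below its level in oligodendrocytes.

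Mobp repeated its pattern in the Enpp6-gated nuclei, which share libraries with the oligodendrocytes but no nuclei. It had 1813, 1697 and 1850.4 CPM under CIH against 1335, 1279 and 1447 CPM under normoxia, with no overlap. The log2 fold change was 0.39 (SE 0.08, adjusted p = 0.427 in edgeR). Opalin was lower in every CIH library than in every normoxia library there, with a log2 fold change of -0.57 (SE of 0.17 and adjusted p = 0.774 in edgeR). Of the 9 genes, 1 had every CIH library above and 1 every CIH library below, against 5.79% and 4.81% of 9810 genes, and 0 genes of any kind passed the test in these nuclei (0% called). When the Enpp6-gated nuclei were added to the oligodendrocytes, an alternative chosen after the data were seen, the log2 fold change of Mobp was 0.38.

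Other genes of myelin in oligodendrocytes gave no call. Of 8 structural genes tested, 4 had positive and 4 negative log2 fold changes with a median of 0.01. Gpm6b, which encodes a membrane glycoprotein, had 1249, 1189 and 1132 CPM under CIH against 1035, 1044 and 1116 CPM under normoxia, and the tetraspanin Tspan2 had 627 to 715 CPM under CIH against 638 to 653 CPM under normoxia. All 8 lipid genes were tested, 3 positive and 5 negative, with a median of -0.02. Among them the galactolipid enzymes Ugt8a and Gal3st1 and the fatty acid hydroxylase Fa2h had the highest levels, Ugt8a with 743 to 780.5 CPM under CIH against 781 to 849 CPM under normoxia. Of 15 genes of axon and glial contacts, 8 were positive and 7 negative, with a median of 0.02, the 3 of highest level being Ncam1, Gjc3 and Nfasc. The median over all 12578 genes was 0.00.

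Among 11 transcription factors of the lineage the median log2 fold change was 0.08, with 7 positive and 4 negative and 0 called. The 4 with unadjusted p under 0.05, against 681 of all 12578 genes, had positive values. In these 4, Tcf7l2, Olig1, Zfp536 and Zfp488, every CIH library was above every normoxia library, as in 6.42% of all genes, and in 1, Zfp24, every one was below, as in 5.12%. Tcf7l2, a Wnt effector active when oligodendrocytes mature, had 78.7, 86.5 and 72.7 CPM under CIH against 60.3, 65.0 and 55.9 CPM under normoxia (log2 ratio 0.37, SE 0.12, adjusted p = 0.838 in edgeR). Olig1, a lineage factor, had 83.9, 84.4 and 101 CPM under CIH against 73.8, 75.2 and 62.2 CPM under normoxia (0.34, SE 0.12, adjusted p = 0.885). Zfp536 and Zfp488, zinc finger proteins of the lineage, had log2 fold changes of 0.16 (SE 0.07, adjusted p = 0.904) and 0.54 (SE 0.24, adjusted p = 0.91). Sox10, the factor that acts with Myrf, had 281, 312 and 213 CPM under CIH against 358, 328 and 280 CPM under normoxia (log2 ratio -0.28, SE 0.16, adjusted p = 0.912, and -0.12 without the third CIH library), with overlap, and Zeb2 had 2011 to 2279 CPM under CIH against 2018 to 2164 CPM under normoxia.

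Outside oligodendrocytes and Enpp6-gated nuclei, the 9 genes were present at low levels in every class. The median nucleus of neurons, granule neurons, excitatory and inhibitory neurons, precursors, astrocytes, microglia and endothelial cells held 1 or 2 UMIs of the 9 genes together in each library, against 19 to 27 in oligodendrocytes. Means per nucleus were 1.11 to 2.37 UMIs in microglia, with median depths of 1173.5 to 1907 UMIs, 2.26 to 3.90 UMIs in excitatory neurons, with median depths of 7762 to 11480 UMIs, and 3.30 to 7.31 UMIs in granule neurons. As a level, the sum was 5.37 to 14.7% of that in oligodendrocytes of the same library for microglia, 6.19 to 15.0% for endothelial cells, 3.40 to 11.3% for astrocytes, and 2.09 to 3.47% for excitatory neurons. For all neurons it was 3.89 to 5.72%.

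The third CIH library held the most of these UMIs per nucleus in microglia, inhibitory neurons and fibroblasts, with means of 2.37, 4.15 and 2.14. In granule neurons its mean was the lowest, 3.30 against 5.02 to 7.31 in the others. Its median granule neuron, however, held 2 of these UMIs, against 1 in the others. Granule neurons with none of the 9 genes made up 17.0% in it, against 24.3 to 37.1% in the others. In all neurons the mean of 3.27 in the third CIH library was below the 3.67 of the first CIH library. In microglia the 9 genes summed to 650, 554 and 1584 CPM under CIH against 823, 769 and 1058 CPM under normoxia, and in inhibitory neurons to 243, 254 and 535 CPM under CIH against 249, 262 and 315 CPM under normoxia. In both classes only the third CIH library lay above the normoxia range. Neurons with none of the 9 genes made up 38.9, 33.4 and 15.4% under CIH against 27.3, 39.5 and 29.5% under normoxia. The median neuron of the third CIH library also had 0.259% mitochondrial UMIs, against 0.0454 to 0.0798% in the other 5 libraries. The part of mitochondrial UMIs in the result was not tested.

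**Figure D3:**
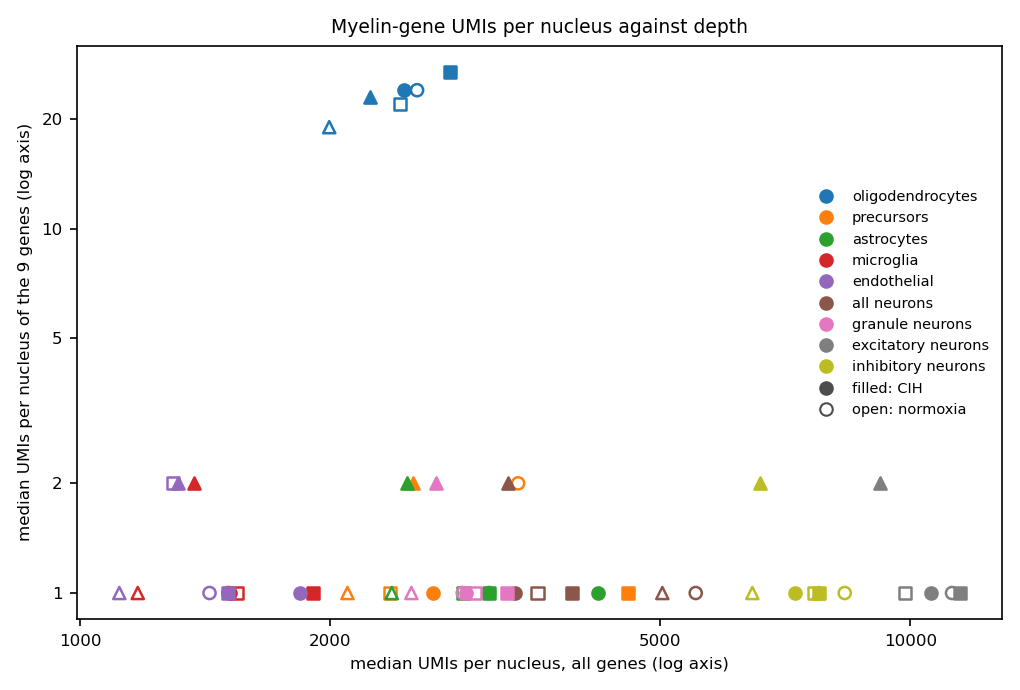
Median UMIs per nucleus of the 9 genes together (y, log axis) against the median UMIs per nucleus of all genes (x, log axis), for each class and library. Circles, squares and triangles are libraries 1, 2 and 3, filled for CIH and open for normoxia. Oligodendrocytes lie between 19 and 27, and the other classes plotted at 1 or 2, from the shallowest endothelial nuclei to the deepest excitatory neurons.

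Myrf, the regulator, was low or missing in precursors and in the classes outside the lineage. Its level was 96 to 143 CPM in Enpp6-gated nuclei but 5.58 to 7.96 CPM in all neurons. In precursors no Myrf UMI was found in 5 of the 6 libraries, 0 UMIs among 638064 from 195 nuclei, which allows up to 1.54% of nuclei with a UMI and 4.70 CPM, taking 3 counts as the limit that a count of 0 allows. Endothelial nuclei had none in 5 libraries either, 0 UMIs among 505511 from 319 nuclei, which allows up to 0.940% of nuclei and 5.94 CPM. The third CIH library held 5 Myrf UMIs in each of these classes. The limits hold only for the 5 libraries picked because they held none, and not for the third CIH library. Such limits cover counting error only.

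In neurons, Mobp again had every CIH library above every normoxia library, at 66.0, 61.2 and 84.2 CPM under CIH against 44.9, 40.2 and 50.3 CPM under normoxia. The log2 fold change was 0.64 (SE 0.15), with an adjusted p of 0.191 in edgeR, which called 0 of 18025 genes in neurons (0%). Without the third CIH library it was 0.47 (SE 0.10) and passed, with adjusted p = 0.0421, in a fit that called 5.04% of genes. DESeq2 on all libraries gave an adjusted p = 0.0083 for Mobp and called 1.76% of genes. Mbp was the other gene without overlap, at 202, 197 and 286 CPM under CIH against 183, 164 and 184 CPM under normoxia (log2 ratio 0.37, SE 0.15, adjusted p = 0.359 in edgeR, and 0.16 without the third CIH library), so that 2 of the 9 lay above, against 9.92% of all genes, and 0 lay below, against 9.43%. Blocked on replicate number, Mobp had an adjusted p = 0.0337 in edgeR, with 0.693% of genes called. Mag gave 57.0, 45.5 and 44.7 CPM under CIH against 44.8, 40.7 and 35.1 CPM under normoxia, a log2 fold change of 0.29 (SE of 0.12 and adjusted p = 0.358 in edgeR). That of Mag was 0.17 without the first CIH library and 0.11 without the deepest 5% of nuclei. When neurons were gated without a limit on oligodendrocyte markers, the log2 fold change was 0.0015 for Mag, 0.13 for Mbp and 0.42 for Mobp. With the shared barcodes, 776 of 3405 neurons of the second normoxia library, left out, the log2 fold change of Mobp in neurons was 0.67 (adjusted p = 0.19 in edgeR). Granule neurons held 8476090, 8331985 and 2326554 of the 18065930, 18962373 and 19525881 neuron UMIs in CIH. In normoxia they held 2879237, 3627391 and 3821949 of 17985076, 22632088 and 31049523 neuron UMIs. Their Mobp level was above that of excitatory and inhibitory neurons in every library. The part of this uneven share in the values for all neurons was not tested.

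Myelin-gene UMIs were unevenly spread over neurons. Neurons with at least 7 of the 9 genes detected, a limit chosen after the data were seen, were 3.57, 2.95 and 1.55% of neurons in CIH and 3.16, 2.32 and 2.85% in normoxia. They held 63.3, 55.6 and 15.8% of the class's myelin-gene UMIs in CIH and 46.2, 39.5 and 39.6% in normoxia, with median depths of 15944 to 40974 UMIs, against 3202 to 5323 UMIs in the other neurons. In those other neurons Mobp had 29.1, 27.7 and 69.4 CPM under CIH against 22.5, 23.8 and 29.3 CPM under normoxia. The groups overlapped there, and the third CIH library stood alone. Because the nuclei were chosen by UMIs of the 9 genes, their large share follows in part from the choice. For the same reason, the overlap among the remaining neurons is a description and not a test. Granule neurons showed the same concentration, with 1.78 to 8.23% of nuclei holding 19.6 to 80.2% of the UMIs. Whether the nuclei so chosen are droplets with more than 1 nucleus was not tested.

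The change of the 9 genes in neurons did not differ detectably from that in oligodendrocytes of the same libraries. On the difference in log2 CPM between neurons and oligodendrocytes, limma called 0 of 12480 genes (0%), 0 of the 9 among them, and 1017 at an unadjusted p under 0.05. The value for Mobp was 0.22 (SE 0.14, adjusted p = 0.711 in limma), from a mean difference of -4.67 in CIH and -4.89 in normoxia. For Mbp it was 0.33 (SE 0.16, adjusted p = 0.634), from -4.21 in CIH and -4.54 in normoxia. Without the third CIH library these values were 0.11 for Mobp and 0.19 for Mbp. For Cnp it was 0.00 (SE 0.14). The uneven share of granule neurons enters these differences too, and its part was not tested. As a share of the 9 genes' UMIs, Mobp made up 17.3, 16.8 and 18.2% in CIH and 13.0, 13.4 and 15.8% in normoxia oligodendrocytes, and in neurons 13.6, 13.4 and 13.7% in CIH and 10.8, 10.7 and 11.9% in normoxia. The CIH shares were the higher ones in both classes.

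Mobp did not show this pattern in every class. In granule neurons it had 101, 92.8 and 103 CPM under CIH against 109, 89.3 and 121 CPM under normoxia, and in excitatory neurons 32.7, 26.6 and 50.8 CPM under CIH against 36.8, 30.0 and 29.7 CPM under normoxia. Inhibitory neurons had 26.8, 30.2 and 79.8 CPM under CIH against 23.4, 25.6 and 35.7 CPM under normoxia. Microglia had 77.7, 48.5 and 160 CPM under CIH against 97.3, 67.5 and 118 CPM under normoxia. The groups overlapped in all 4 classes, and in excitatory and inhibitory neurons and microglia the third CIH library was the highest. Log2 fold changes of Mobp were -0.10 (SE 0.13) in granule, 0.20 (SE 0.22) in excitatory and 0.71 (SE 0.35) in inhibitory neurons. Without the third CIH library those of Mobp in excitatory and inhibitory neurons were -0.15 and -0.04. In granule neurons 3 of the 9 genes, Mal, Mog and Myrf, had every CIH library below every normoxia library, against 7.15% of 13853 genes, and 0 had every one above, against 5.78%. No gene passed the test in granule neurons (0% called), where log2 fold changes were -0.33 (SE 0.11) for Mal and -0.60 (SE 0.21) for Opalin, both with an adjusted p of 0.749 in edgeR. That of Mal was -0.22 without the third normoxia library and -0.57 with no limit on oligodendrocyte markers.

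**Figure D4:**
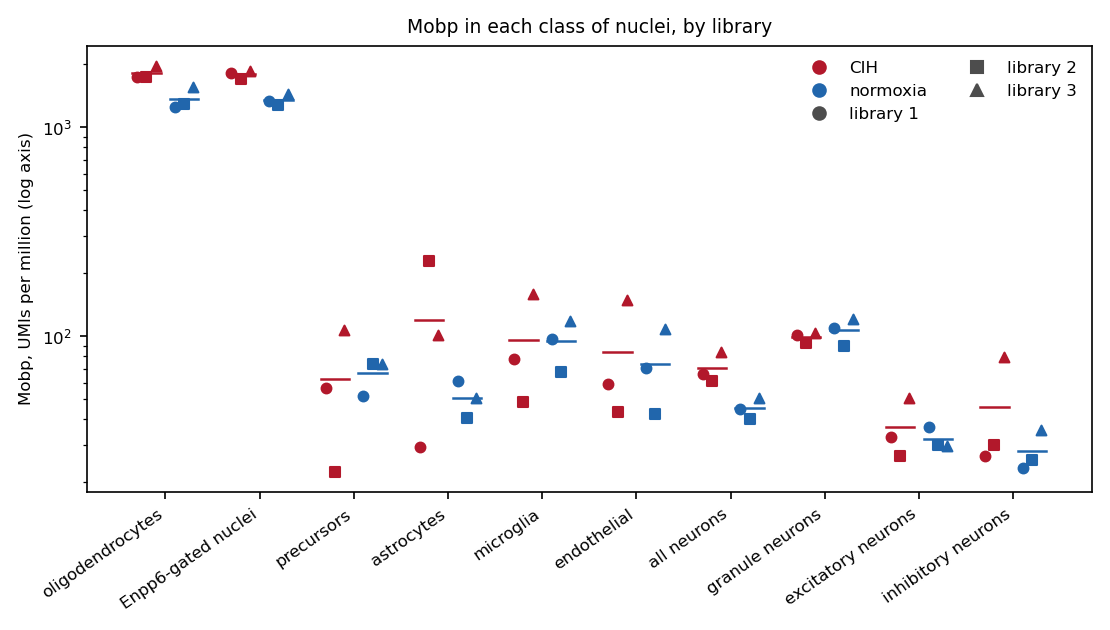
Mobp in CPM (y, log axis) in each class with at least 20 nuclei in every library, with CIH left of normoxia. Points are libraries and lines group means. The groups are apart in oligodendrocytes, Enpp6-gated nuclei and all neurons, and overlap in precursors, astrocytes, microglia, endothelial cells and the 3 kinds of neurons.

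The filter on low counts left 3 of the 9 genes to test in precursors, 3 in astrocytes, 7 in microglia and 2 in endothelial cells. None of these passed the test, which called 0.0363% of genes in precursors, 0.00682% in inhibitory neurons and 0% in the other classes. Few nuclei stood behind these values. The smallest libraries had 29 precursors, 42 astrocytes, 159 microglia and 32 endothelial nuclei. In astrocytes Mbp had 153, 769 and 447 CPM under CIH against 324, 216 and 314 CPM under normoxia, and 1 nucleus of the second CIH library held 142 of its astrocytes' myelin-gene UMIs, 63.1%. Without that nucleus Mbp in the second CIH library was 242 CPM, inside the normoxia range, and Mobp was 75.4 CPM in place of 229 CPM. Log2 fold changes in astrocytes were 0.68 (SE 0.31, adjusted p = 0.805 in edgeR) for Mbp, which a stricter gate turned to -0.18, and 1.19 (SE 0.43, adjusted p = 0.654) for Mobp. That of Mobp was 0.66 without the second CIH library and 0.49 with the stricter filter on nuclei.

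The mix of the 9 genes outside oligodendrocytes was not the same in every class. Cnp made up a median of 2.3% of the 9 genes' UMIs in oligodendrocytes but 7.46% in astrocytes and 5.63% in all neurons. Mog went the other way, with 11.9% in oligodendrocytes and 8.45% in neurons, 4.17% in microglia and 2.54% in astrocytes. Mal had its highest median share in endothelial cells, 30.4%, but was also at 22.1% in mural cells, 15.3% in fibroblasts and 13.0% in microglia. In oligodendrocytes it was 7.33%. Cldn11 had its highest median share, 23.0%, in fibroblasts.

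Mal made up 36.8, 23.9 and 21.9% of the 9 genes' UMIs in CIH and 34.2, 26.5 and 34.6% in normoxia endothelial nuclei, against 7.14 to 7.91% in oligodendrocytes. Thinned to 1000 UMIs, a Mal UMI was found in 22.6, 13.2 and 24.2% of CIH and 22.9, 32.0 and 27.0% of normoxia endothelial nuclei, against 7.97 to 12.6% of microglia, a class of like depth. Unthinned, endothelial shares were 30.5, 25.4 and 33.9% in CIH and 41.5, 43.8 and 42.3% in normoxia. The level of Mal was 229, 182 and 315 CPM under CIH against 353, 383 and 384 CPM under normoxia, from 18 to 203 UMIs per library. Every CIH library had less Mal than every normoxia library, and the same held for Mag. The share of all endothelial genes with this pattern was not counted. The 9 genes together were at 622, 763 and 1436.5 CPM under CIH against 1032, 1447 and 1111 CPM under normoxia. For Mal the log2 fold change was -0.57 (SE 0.25, adjusted p = 0.743 in edgeR). It was -0.34 with a stricter gate and -0.38 with median UMIs as a covariate.

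Cldn11 made up 15.2 to 27.3% of the 9 genes' UMIs in CIH and 20.0 to 28.1% in normoxia fibroblasts, against 4.45 to 5.38% in oligodendrocytes. Its level there was 171, 78.0 and 150.3 CPM under CIH against 189, 89.8 and 182 CPM under normoxia, above the 18.8 to 52.5 CPM in astrocytes, and the groups overlapped. These values rest on 3 to 39 UMIs per library, and the fibroblasts, with 13 nuclei in the second normoxia library, were not tested. Claudin-11 is known from the tight junctions of the arachnoid, a layer of the meninges.

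**Figure D5:**
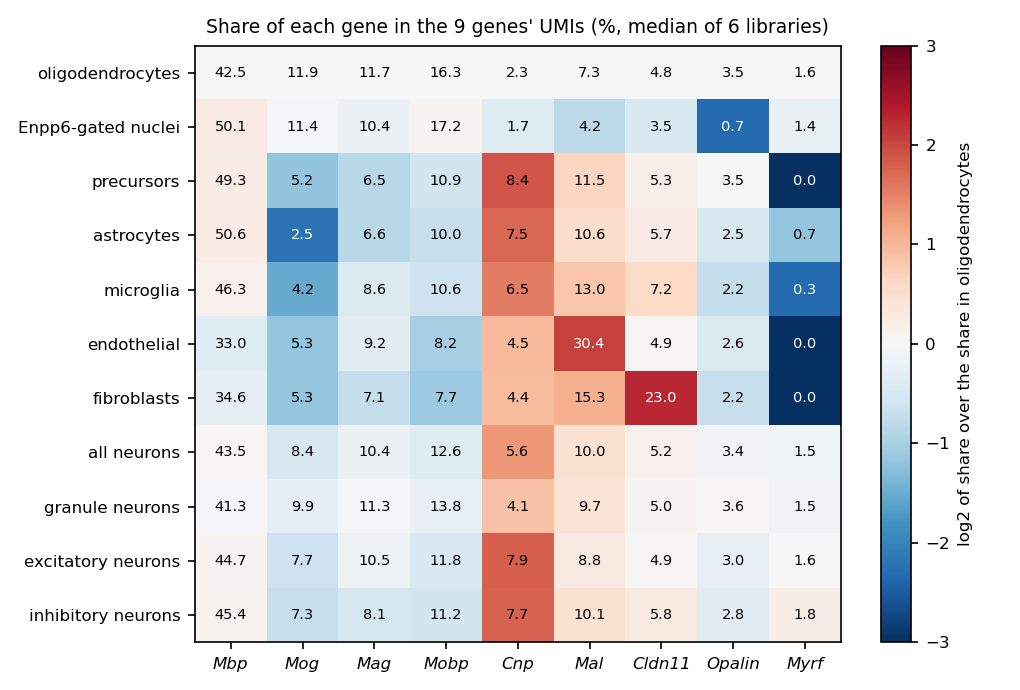
Share of each gene in the UMIs of the 9 genes, in percent, as the median of the 6 libraries, for each class (rows). Colour gives the log2 ratio to the share in oligodendrocytes, limited to the range of the colour bar. Among the classes shown, Mal is highest in endothelial cells, followed by fibroblasts, and Cldn11 is highest in fibroblasts. Myrf is at 0 in precursors, endothelial cells and fibroblasts. Mural cells are not shown.

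Over 54 sums, those of 9 classes in 6 libraries, the mean log2 level of the 9 genes was like that of Aplp1 (Pearson r 0.942), Sept7 (0.930), Otud7b (0.928), Trf (0.927) and Cdc37l1 (0.922) among genes outside the marker lists. The points share libraries and depth, and the 6 oligodendrocyte sums lie far from the rest, so these values are a description. None of these genes passed the test in oligodendrocytes. Sept7 had 1318, 1337 and 1527 CPM under CIH against 1220.4, 1264 and 1539 CPM under normoxia, with the third library of each group the highest, as for Mobp. Trf, the gene of the iron carrier transferrin, had 1372, 1366 and 1017 CPM under CIH against 1275, 1307 and 1058 CPM under normoxia, with the third library the lowest, as for Mag.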

How the data were processed

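The deposited files hold raw UMI counts per gene and barcode in 6 matrices, made by the authors with Cell Ranger, version 6.1.2 per the file headers and 3.1.0 per the submitters' processing notes, on mm10; Seurat 4.0 is also named there. Whether counting used introns or strand is not given in the sources used here. Nuclei were kept from 500 genes upward and up to 5% mitochondrial UMIs. A class needed 3 UMIs over 2 genes of its markers and 3 times the UMIs of every other marker list, which placed 85.2% of nuclei; 5945 stayed without a class. No doublet caller was run: the gate and 2 alternatives (a stricter gate, and nuclei above the 95th percentile of UMIs left out) stand in for one.

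UMIs were summed per library and class with at least 20 nuclei in every library, and tested with edgeR 4.0.16 (quasi-likelihood, TMM scaling, filterByExpr, no covariate) in R 4.3.3, adjusted by Benjamini-Hochberg over all genes of a class at 0.05. The neuron minus oligodendrocyte difference used limma 3.58.1 on log2 CPM with a prior count of 1. DESeq2 1.42.0 was an alternative. Sums and figures were made in Python 3.11.15 (scipy 1.17.1, matplotlib 3.10.9, pandas 2.3.3, numpy 2.4.6). On simulated counts for the oligodendrocyte comparison (12356 genes), 62.5% of 2-fold and 98.0% of 4-fold changes were recovered, with 9 false among 165 calls; for neurons (17826 genes) the shares were 66.3% and 93.8%, with 10 false among 165.

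Libraries of the same number deviated together in oligodendrocytes, with correlations of 0.15, 0.14 and 0.42. This pairing is a hint from the data, since the labels name no shared litter or day, and numbers that differ correlated as well: 0.159 for the first CIH with the second normoxia library, and 0.231 for the second CIH with the first normoxia library. All 9 genes are named. Of the other gene lists, those past the threshold or with the highest levels are named, and genes with an unadjusted p under 0.05. A listed gene is not reported here. The genes, lists and tests were chosen with earlier results of these data known. Leaving out the shared barcodes and adding the Enpp6-gated nuclei were chosen after the data were seen. Gene positions are from GENCODE M21, in which 32235 of the 32285 genes were found.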

Additional observations from a re-analysis of the deposited data

How the results depend on the processing

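Of the 9 genes in oligodendrocytes, 1, Mobp, passed without a filter on low counts (adjusted p = 0.0168 in edgeR), with the replicate block (0.0106) and with median UMIs as a covariate (0.00867), and 0 did in every fit that left out a library. Over 18 settings its log2 fold change lay between 0.33 and 0.49, and its adjusted p between 0.00867 and 1.0. Over all genes the calls were 1 as reported, 13 in DESeq2, 73 without the filter, 65 with the replicate block, 89 with the covariate, 0 with the deepest 5% of nuclei left out, 0 with Enpp6-gated nuclei added, and 0 to 13 with a library left out. In the other classes together, calls among the 9 genes were 0 as reported, 1 in DESeq2, 3 without the filter, 2 with the replicate block, 1 with the covariate and 0 to 1 with a library left out, the calls being Mbp in astrocytes without the first CIH library (1.03, adjusted p = 0.0456 in edgeR) and Mobp in neurons without the third. The replicate block also called Mobp in Enpp6-gated nuclei (adjusted p = 0.035, 0.194% of genes called) and neurons. The neuron minus oligodendrocyte difference gave 0 calls among the 9 genes throughout. In the reported fits the low-count filter left only 3 of the 9 genes to test in precursors, 3 in astrocytes, 7 in microglia and 2 in endothelial cells.

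Values near 0 changed sign. In oligodendrocytes Mbp was -0.0001 with the replicate block. Mog was 0.0031 with RLE scaling and in DESeq2, 0.0138 with scaling by the sum, 0.016 with the stricter filter on nuclei and 0.007 with the stricter gate. Mag was -0.1136 with the covariate, -0.0018 without the deepest 5% and -0.002 with Enpp6-gated nuclei added, and Mal -0.0007 with the covariate and -0.0151 with those nuclei added. Mobp in granule neurons was 0.0107 with the covariate, 0.2419 with the stricter gate and 0.0894 without the deepest 5%, and Mbp in astrocytes -0.1841 with the stricter gate. Leaving out 1 library gave -0.0521 to 0.0461 for Mbp, -0.0733 to 0.1132 for Mog, -0.11 to 0.1355 for Mag, -0.0188 to 0.0426 for Mal and -0.0476 to 0.1149 for Cldn11 in oligodendrocytes. For Mobp it gave -0.2128 to 0.0192 in granule, -0.0444 to 0.9785 in inhibitory and -0.1538 to 0.4114 in excitatory neurons, and for the Cnp difference between neurons and oligodendrocytes -0.1124 to 0.0686. The cause was not tested. Fibroblasts and mural cells, with under 20 nuclei in a library, were not tested.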
